A study of Homo sapiens with 10 samples.

Results

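The regions described here carry H3K4me1 alone. They are the H3K4me1 regions of RPMI-8402 cells, set C, that shared no base with a listed H3K27ac region of set C or H3K4me3 region of set B. They were chosen by the positions in these 3 lists, so that their lack of both marks is the selection itself and not a finding. The rule kept 18892 of 39503 H3K4me1 regions on chromosomes 1 to 22 and X, which was 47.8% (exact Clopper-Pearson 95% interval 47.3 to 48.3%). A further 18564 regions overlapped H3K27ac without H3K4me3 and are called acetylated H3K4me1 regions below, and 2047 overlapped H3K4me3.

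RPMI-8402 is a cell line long grown from a human T-cell leukaemia (T-ALL), and the labels give no treatment or genotype beyond the line. The 10 CUT&RUN libraries, a method in which antibody-directed cleavage frees the DNA around a protein or mark, were labelled as sets A to D and included 4 IgG controls, which were not analysed here. The 6 lists used held MYCN (set A), H3K4me3 (set B), H3K27ac and H3K4me1 (set C) and MYC (sets C and D). MYC alone had more than 1 list, and the headers of both point to the same signal track, so that their independence is not settled. The labels name the set D MYC library as its own control, where the set C library has the IgG of its set.

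H3K4me1 is placed by the KMT2C and KMT2D methyltransferases and marks enhancers both before and during their use. H3K27ac is placed by p300 and CBP and separates enhancers in use from those that carry H3K4me1 alone, which are called primed in the field. H3K4me3 marks active and poised promoters, whose flanks often carry H3K4me1. MYC and MYCN, partners of MAX, bind mostly at promoters and enhancers that are already open, and MYC is a central oncogene downstream of NOTCH1 in this leukaemia.

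The lists give positions on hg19 without scores or read counts, so the depth behind each is unknown. A region without a listed H3K27ac region is therefore not shown to lack the mark in the cells. The Clopper-Pearson intervals of shares and the Newcombe intervals of differences below cover counting error over the listed regions and not the spread between cultures. No p-values are given, because every mark has 1 library and regions are not replicates. H3K27me3, which separates poised from primed enhancers, was not analysed here.

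The H3K4me1-only regions were short. Their median width was 276 bp (quartiles 204 and 394, range 168 to 1997), against 391 bp (262 and 612) in the acetylated regions. They covered 6.27 Mb, or 39.4% of the H3K4me1 bases, a smaller share than their 47.8% of the regions. A narrow region meets another list less easily, so the widths are given as a description with no test.

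The border of the class was well populated. There were 127 members within 10 bp of H3K27ac or H3K4me3, of which 16 touched an H3K27ac region and 1 touched an H3K4me3 region with no base between them. Just outside the class, 96 H3K4me1 regions shared at most 10 bp with each mark they met. At a limit of 100 bp there were 868 members, with a median width of 258 bp, of which 12.4% held MYC. The matching 1463 regions outside the class had a median width of 259 bp, and 12.3% of them held MYC.

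Many members lay close to acetylated chromatin and others far from it, so the name primed was not used for the class. The median distance to the nearest H3K27ac region was 6551 bp (quartiles 1199 and 18426). H3K27ac lay within 1 kb of 22.5% of members (21.9 to 23.1%, 4257 regions), within 5 kb of 43.8%, within 10 kb of 60.4% and within 50 kb of 91.4%. Beyond 50 kb there were 1624 members (8.60%), and 1426 of these also lay over 50 kb from H3K4me3. The nearest H3K27ac region was closer than the nearest H3K4me3 region for 78.6% of members. The H3K27ac list was also the longer, with 39528 regions against 13852 for H3K4me3, so this share is a description with no test. Over 1 kb from both marks there were 14031 members (74.3%).

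Members beside H3K27ac mostly had it on 1 side. Of the 4257 within 1 kb, 125 (2.94%, 2.45 to 3.49%) had H3K27ac within 1 kb on both sides. Widening the limit to 5 kb gave 958 of 8267 (11.6%), and 10 kb gave 3167 of 11420 (27.7%). The members within 1 kb stood beside 4058 different H3K27ac regions, so few shared a neighbour. These 4058 regions had a median width of 541 bp, against 552 bp for the 35470 other H3K27ac regions. Of them 51.1% overlapped H3K4me1 themselves (49.6 to 52.7%), against 44.6% of the others (44.1 to 45.1%), while 11.5% overlapped H3K4me3 against 24.5%. The rule keeps H3K4me3 off the members beside them, so these shares are a description with no test.

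**Figure D1:**
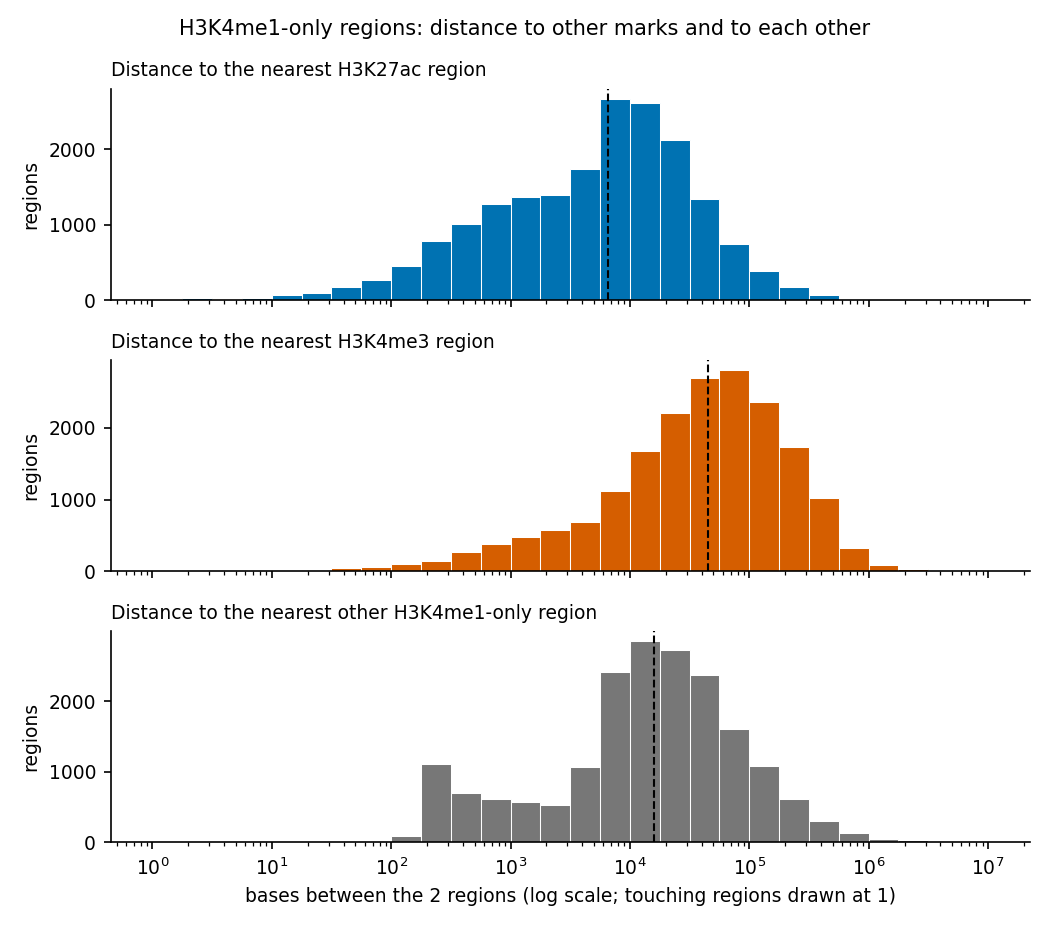
Number of H3K4me1-only regions by the bases to the nearest H3K27ac region, the nearest H3K4me3 region and the nearest other H3K4me1-only region, on a log axis in steps of equal size on the log10 scale; dashed lines are medians (6551, 44798 and 16056 bp). The first distribution has a broad shoulder below 1 kb, the second lies mostly above 10 kb, and the third has a separate group of pairs below 1 kb.

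H3K4me3, whose list was shorter (13852 regions), was farther away, at a median distance of 44798 bp (quartiles 13474 and 120417). It lay within 1 kb of 5.64% of members (5.31 to 5.98%, 1065 regions) and within 5 kb of 14.1%, while 47.3% lay over 50 kb from it. The acetylated regions were beside H3K4me3 less often, at 2.88% within 1 kb (2.64 to 3.13%) and 7.85% within 5 kb (7.47 to 8.25%). H3K4me3 was used by the rule, and wider regions near it are removed more easily, so these shares are a description with no test.

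The 1065 members within 1 kb of H3K4me3 stood beside 1024 different H3K4me3 regions. Of these, 984 had 1 such neighbour, 39 had 2 and 1 had 3, so few H3K4me3 regions had more than 1 member beside them. H3K27ac lay within 1 kb of 43.3% of these members (40.3 to 46.3%). H3K27ac overlapped 62.7% of the 1024 (59.7 to 65.7%) and 66.5% of the 12828 other H3K4me3 regions (65.7 to 67.3%). MYC was met by 75.2% (72.4 to 77.8%) and 76.9% (76.1 to 77.6%), and the median widths were 1268 and 1347 bp. The 2 intervals overlapped for MYC and met at 65.7% for H3K27ac.

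MYC was a minority feature of the class. It was found at 1095 members in at least 1 list, or 5.80% (5.47 to 6.14%), where 15.9% of all H3K4me1 regions held it. The MYC list of set C met 411 members (2.18%, with 7.19% over all H3K4me1 regions) and that of set D met 813 (4.30%, with 13.1% over all). Both lists met 129 members (0.683%, 0.570 to 0.811%), against 4.40% of all H3K4me1 regions. MYC within 1 kb was more common, at 13.2% of members (12.7 to 13.7%) and 27.5% of acetylated regions (26.8 to 28.1%). The distance to the nearest MYC peak of set D had a median of 18814 bp from members and 14650 bp from acetylated regions.

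Acetylated regions held MYC more often, and MYC took no part in the rule. The difference was 14.7 percentage points (Newcombe 95% interval 14.0 to 15.3), with 20.4% of acetylated regions holding MYC. With set C alone, leaving out set D, the difference was 5.83 points (5.39 to 6.28), and with set D alone it was 12.6 points (12 to 13.2). Requiring both lists gave 3.76 points (3.45 to 4.09). The difference was also present within each width quartile of the H3K4me1 list, which makes widths alike only roughly. Among regions of 168 to 222 bp, MYC was met by 4.25% of 6210 members and 16.5% of 3031 acetylated regions, a difference of 12.2 points (10.9 to 13.7). In the widest quartile, from 493 to 3080 bp, the shares were 9.53% of 2698 and 25.1% of 6835, a difference of 15.6 points (14.1 to 17.1). Members in it reached only 1997 bp, so widths within this quartile were not matched. With a fixed window of 400 bp around each centre the difference was 13.9 points (13.2 to 14.6).

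**Figure D2:**
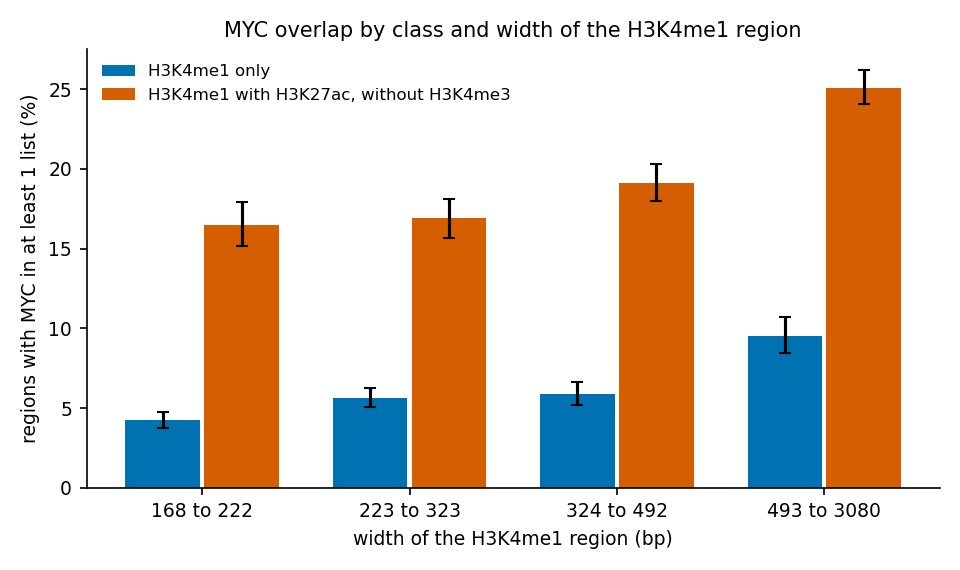
Percent of H3K4me1 regions that overlap MYC in at least 1 list, in the 4 width quartiles of the whole H3K4me1 list, for H3K4me1-only regions and for those with H3K27ac and without H3K4me3; bars are shares and whiskers exact 95% intervals. MYC rises with width in the H3K4me1-only class from 4.25% to 9.53%, and the acetylated class lies above it in every quartile.

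Acetylated regions held MYC more often on every chromosome. The difference lay between 10.2 points on chromosome 15 and 19.2 points on chromosome 21, and the interval was above 0 on all 23 chromosomes, with 7.02 points as the lowest bound. Among members the MYC share was highest on chromosome 19, at 12.4% of 628 (9.94 to 15.3%), with 38 members met by set C and 53 by set D. It was lowest on chromosome 18, at 2.08% of 337 (0.839 to 4.23%), and on chromosome 13, at 2.91% of 206 (1.08 to 6.23%). These chromosomes were picked out after their values were seen. The acetylated regions of chromosome 19 also had the highest MYC share of their class, 29.6% (25.4 to 34.1%). Leaving chromosome 19 out gave 5.57% of members with MYC and a difference of 14.7 points.

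The share of H3K4me1 regions without either mark also differed between chromosomes. It was highest on chromosome 13, at 55.7% of 370 (50.5 to 60.8%), chromosome 18, at 55.2% of 611 (51.1 to 59.1%), and chromosome X, at 53.1% of 816 (49.6 to 56.5%). Chromosome 21 had the lowest share, 43.2% of 628 (39.2 to 47.1%). Being the outcome of the rule, these shares are a description.

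The 2 MYC lists met members at different distances from the other marks. Set C alone met 282 members, set D alone met 684 and both met 129. Of the members with MYC in set C alone, 47.5% (41.6 to 53.5%) lay within 1 kb of H3K27ac, against 13.6% (11.1 to 16.4%) of those with set D alone, a difference of 33.9 points (27.5 to 40.2). Members without MYC lay between them, at 22.5% (21.9 to 23.1%). For H3K4me3 within 1 kb the shares were 29.4% with set C alone and 3.65% with set D alone, a difference of 25.8 points (20.5 to 31.5), and 5.26% without MYC. The median distance to H3K27ac was 1154 bp with set C alone, 11887 bp with set D alone, 8496 bp with both and 6463 bp without MYC. Each list had its own peak caller, SEACR for set C and MACS2 for set D, and a different control in the labels. Their regions also differed in width, with medians of 1165 bp in set C and 422 bp in set D. What belongs to the caller, the control, the width or the set cannot be told apart. Many set C regions reached from a member to another mark, as described below.

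**Figure D3:**
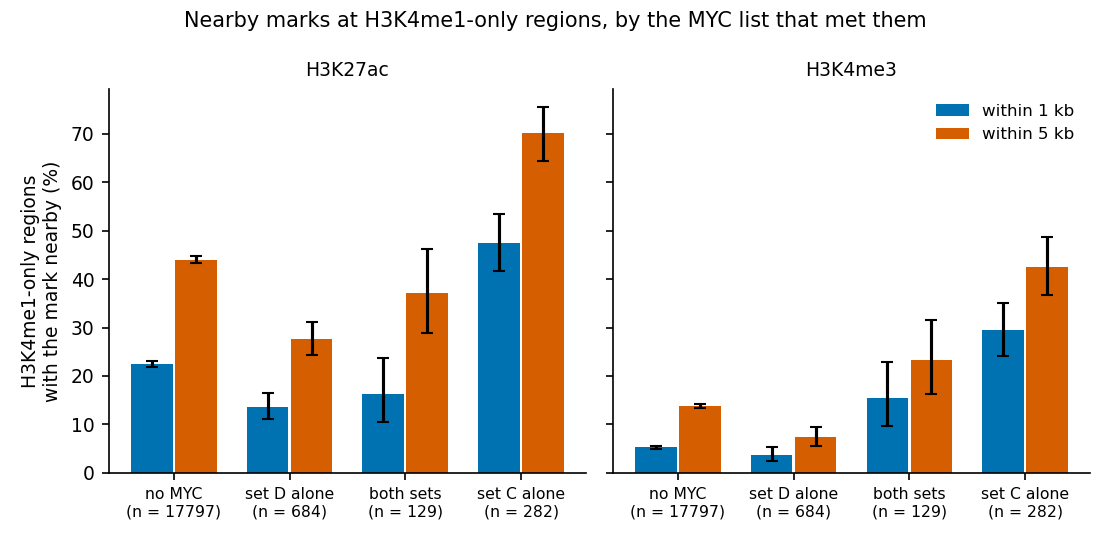
Percent of H3K4me1-only regions with H3K27ac (left) or H3K4me3 (right) within 1 kb or 5 kb, split by the MYC list that overlapped them; whiskers are exact 95% intervals and n is the number of regions. Members with MYC in set C alone stand highest for both marks (47.5% and 29.4% within 1 kb) and those with set D alone lowest (13.6% and 3.65%).

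Pooling the lists hid this contrast. With MYC from either list, 22.6% of the MYC-bearing members lay within 1 kb of H3K27ac, which differed by 0.122 points (-2.34 to 2.77) from those without MYC. Within 5 kb of H3K27ac the pooled share was 39.7%, against 44.0% without MYC, a difference of -4.28 points (-7.23 to -1.26). Near H3K4me3 the pooled MYC-bearing members were in excess, at 11.7% against 5.26% within 1 kb, a difference of 6.42 points (4.62 to 8.49). Split by list, this difference was 24.2 points for set C alone (19.1 to 29.7), 10.2 points for both lists (4.99 to 17.5) and -1.61 points for set D alone (-2.83 to 0.105). Another member lay within 10 kb of 52.1% of members with MYC of set C alone, 36.3% with set D alone, 48.1% with both and 37.3% without MYC. Some neighbours share 1 MYC region, since 21 set C regions held 2 members and 1 held 6, against 5 set D peaks with 2. Over 1 kb from both marks, 5.61% of members held MYC (5.23 to 6.0%), with 1.50% in set C and 4.78% in set D.

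Read by distance from H3K27ac, the MYC share rose in set D and was highest near the mark in set C. MYC of set C met 3.64% of the 4257 members within 1 kb of H3K27ac and 1.60% of the 1624 beyond 50 kb, a difference of -2.04 points (-2.83 to -1.14). MYC of set D met 2.68% and 7.33%, a difference of 4.65 points (3.37 to 6.09). Set C met 2.27% from 1 to 5 kb, 1.40% from 5 to 10 kb and 1.62% from 10 to 50 kb, with little difference beyond 5 kb. Set D rose at each step between, with 3.07% from 1 to 5 kb, 4.22% from 5 to 10 kb and 5.54% from 10 to 50 kb. Toward H3K4me3, set C met 9.67% of members within 1 kb and 1.73% of the others, a difference of 7.94 points (6.30 to 9.87). Set D met 4.23% and 4.31% there, a difference of -0.0827 points (-1.18 to 1.33). Those others were not uniform in set D, with 2.20% from 1 to 5 kb, 5.18% from 5 to 10 kb, 4.79% from 10 to 50 kb and 4.23% beyond. Members within 1 kb of an H3K4me3 region without H3K27ac held MYC of either list in 15.2% of 402 cases, against 10.1% of 663 beside an acetylated one, a difference of 5.07 points (1.01 to 9.43).

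**Figure D4:**
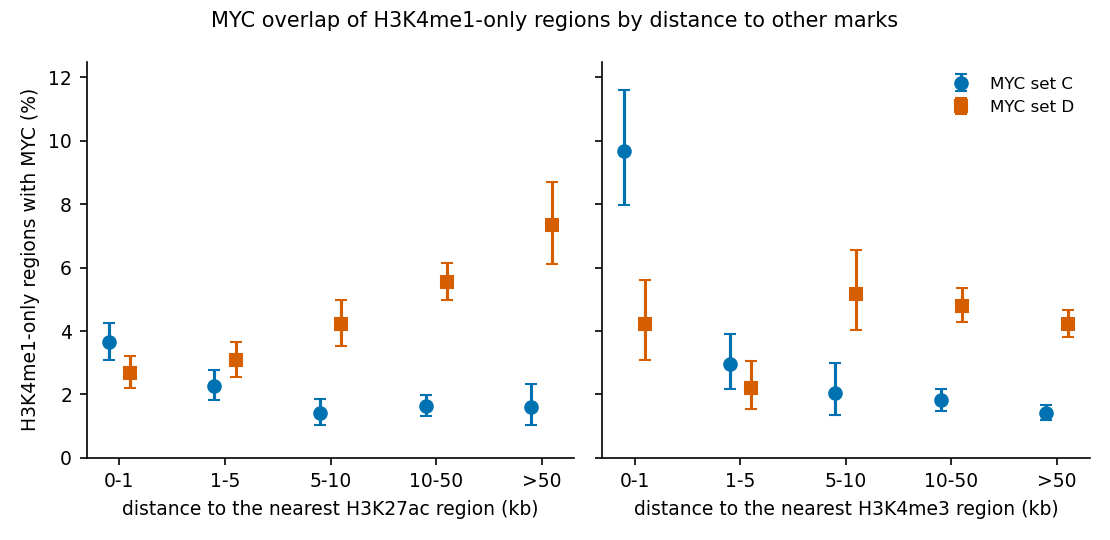
Percent of H3K4me1-only regions that overlap MYC of set C (circles) or set D (squares) by distance to the nearest H3K27ac region (left) and H3K4me3 region (right), in kb; whiskers are exact 95% intervals. Set D rises from 2.68% to 7.33% with distance from H3K27ac, while set C falls from 3.64% to 1.40% at 5 to 10 kb and stays near that level beyond, and peaks at 9.67% within 1 kb of H3K4me3.

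The MYC regions at members differed in extent between the lists. In set C, 385 regions met a member, with a median width of 1215 bp, against 1164 bp in the rest of the list. They covered members broadly, since 62.0% of the 411 members lay wholly inside 1 MYC region. In set D, 809 peaks met a member, with a median width of 286 bp, against 432 bp in the rest of the list and 341 bp among peaks that met an acetylated H3K4me1 region. Only 12.7% of the 813 members lay wholly inside a set D peak, and the centres of peak and member were a median of 108 bp apart (quartiles 47.5 and 207.4).

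Many set C regions reached from a member to another mark. Of the 385, 39.7% also overlapped H3K27ac (34.8 to 44.8%) and 25.5% H3K4me3 (21.2 to 30.1%), and 50.9% overlapped neither (45.8 to 56%). Of the 809 set D peaks, 6.18% overlapped H3K27ac (4.62 to 8.07%), 3.96% H3K4me3 (2.72 to 5.54%), and 90.9% neither (88.7 to 92.7%). Over the whole lists, 10.2% of set C regions and 14.9% of set D peaks met neither mark. Counting MYC regions without either mark as the only evidence of MYC left 859 members with MYC, or 4.55% (4.25 to 4.85%).

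The set C list names a short interval inside its regions, with a median length of 26 bp, and no header explains it. The name was complete for 9482 of 9498 regions, and the other 16 were left out. This interval fell in a member for 117 of the 196 MYC regions that met a member and neither mark (59.7%, 52.5 to 66.6%). It fell in a member for 22 of 187 regions with a complete name, of 189 that met a member and also a mark (11.8%, 7.52 to 17.3%), and in H3K27ac or H3K4me3 for 133 of them (71.1%, 64.1 to 77.5%). A region on chromosome 1 from 228757308 to 228784186, the widest in the group at 26879 bp, held 6 members, 2 H3K27ac regions and 2 H3K4me3 regions, and 1 MYC peak of set D. Among the others, 363 set C regions held 1 member and 21 held 2.

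The widest members with MYC in both lists were spread over 6 chromosomes and showed no common distance to other marks. The widest was on chromosome 11 from 134234037 to 134235316 (1280 bp), with 743 bp inside MYC of set C and 201 bp inside MYC of set D. It lay 3681 bp from H3K27ac and 31429 bp from H3K4me3. The member on chromosome 3 from 17816083 to 17816862 (780 bp) lay wholly inside a set C region, shared 538 bp with a set D peak, and was 31460 bp from H3K27ac and 31126 bp from H3K4me3. That on chromosome 2 from 29537485 to 29538277 (793 bp) was 64465 bp from H3K27ac, the greatest distance of the 10. At the other end, the member on chromosome 2 from 392686 to 393509 (824 bp) was 56 bp from H3K27ac and shared only 37 bp with MYC of set C. Of these 10, 5 lay within 5 kb of H3K27ac and 1 within 5 kb of H3K4me3, against 37.2% and 23.3% of all 129 members with both lists. None held MYCN, which 0.0582% of the class held.

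MYCN was found at 11 members, or 0.0582% (0.0291 to 0.104%), where 0.380% of all H3K4me1 regions held it. The acetylated regions exceeded the members by 0.281 points (0.194 to 0.379). Of the 11, 9 also held MYC of set D and 2 of these held MYC of set C as well, so that 2 held no MYC. None lay within 1 kb of H3K27ac, where 22.5% of the class did, and 6 lay within 5 kb of it, where 43.8% of the class did. The median distance was 4966 bp, against 6551 bp over the class. With only 11 members, these values were not tested against the class.

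The member with the most MYCN sequence was on chromosome 20 from 343011 to 343397 (387 bp), of which 325 bp lay in a MYCN peak and all of it in a set D peak. The member on chromosome 15 from 85777823 to 85778191 (369 bp) held MYC of both lists, lay wholly inside the set C region and shared 255 bp with MYCN. The other member with all 3 lists was on chromosome 20 from 48598696 to 48599309 (614 bp), 6632 bp from H3K27ac. Another on that chromosome, from 4201948 to 4202188 (241 bp), shared 172 bp with MYCN and 234 bp with MYC of set D. Chromosome 20 carried 3 of the 11 and 771 of the 18892 members, a count picked out after the values were seen.

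Among the remaining MYCN members, that on chromosome X from 106922146 to 106922765 (620 bp) was the only one within 5 kb of H3K4me3, at 1901 bp. It held MYC of set D, as did 4 others. The 190 bp member on chromosome 3 at 39222450 to 39222639 shared 173 bp with MYCN, the 205 bp member on chromosome 6 at 167702369 to 167702573 shared 86 bp, and the 472 bp member on chromosome 5 at 177547923 to 177548394 shared 186 bp. On chromosome 1 from 6187691 to 6187891 (201 bp), the last of these 4, the shared part with MYCN was the smallest of the 11, at 30 bp. The 2 without MYC were on chromosome 1 from 204958380 to 204958706 (327 bp), 5401 bp from the nearest MYC region, and on chromosome 8 from 138795620 to 138796053 (434 bp), with MYC of set D 379141 bp away. The latter was also 2324082 bp from H3K4me3, the greatest such distance of the 11.

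Members lay near others of their class less often than acetylated regions did. Another member lay within 10 kb of 37.6% of members (36.9 to 38.3%, 7104 regions), and another acetylated region within 10 kb of 43.9% of acetylated regions (43.1 to 44.6%). Within 1 kb the shares were 13.4% (12.9 to 13.8%) and 21.4% (20.8 to 22.0%). The median distance to the next region of the class was 16056 bp for members and 12862 bp for acetylated regions. H3K4me1 positions were used by the rule, so these values are a description with no test.

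Joined across gaps of up to 10 kb, the members formed 14819 groups. Of these 11788 were lone members, which was 62.4% of the class, and 2344 were pairs, with 24.8%. Groups of 5 or more numbered 73 and held 425 members (2.25%), against 133 groups with 773 acetylated regions (4.16%). Joined with no split into classes, all H3K4me1 regions gave 855 such groups with 14.4% of the regions. The largest groups of members held 10.

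Members stood alone and mixed with other H3K4me1 classes in similar shares. When all H3K4me1 regions were joined across 10 kb, 41.6% of members stood alone, 17.9% lay in groups made only of members and 40.6% in mixed groups. The nearest other H3K4me1 region was a member for 50.3% of members (49.6 to 51.0%) and for 43.5% of acetylated regions (42.8 to 44.2%). It was an acetylated region for 45.1% of members and for 53.2% of acetylated regions. A mixed group holds an acetylated or H3K4me3-bearing H3K4me1 region by definition, so distances to H3K27ac follow partly from the grouping. As a description, members in mixed groups lay a median of 1937 bp from H3K27ac, those in pure groups 13668 bp and those alone 14723 bp. MYC was met by 5.64%, 6.51% and 5.64% of them, in that order, with overlapping intervals (5.13 to 6.18%, 5.71 to 7.4% and 5.14 to 6.18%).

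The 5 groups with the most members, ties broken by the longer span, held 44 members. None of the 44 met MYC, where 5.80% of the whole class did. The first group was on chromosome 17 from 55992918 to 56033406 (40489 bp), with 10 members of 177 to 598 bp. It held 3 H3K27ac regions, 1 acetylated H3K4me1 region and no H3K4me3, MYC or MYCN. Its members lay between 1 and 15108 bp from H3K27ac. That on chromosome 10 from 74069676 to 74105143 (35468 bp) also held 10 members, but with 4 H3K27ac regions, 1 H3K4me3 region and 3 MYC regions in each list. There every member lay within 2735 bp of H3K27ac, and the MYC regions fell between the members.

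The next was on chromosome 1 from 27949660 to 27987261 (37602 bp), with 9 members, 3 H3K27ac regions, 1 H3K4me3 region and 1 MYC region in each list. It was followed by chromosome 1 from 2160744 to 2197910, with 8 members, 2 H3K27ac regions and 1 MYC peak of set D. The last was on chromosome 20 from 4022522 to 4066245, the longest of the 14 groups of 7 members, with 6 H3K27ac regions, 1 H3K4me3 region, 1 MYC region of set C and 2 MYC peaks of set D. With only 44 members, the absence of MYC from these 5 groups was not tested against the class share. In all groups of 5 or more, 7.53% of the 425 members met MYC (5.21 to 10.5%), an interval that includes the class share of 5.80%.

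**Figure D5:**
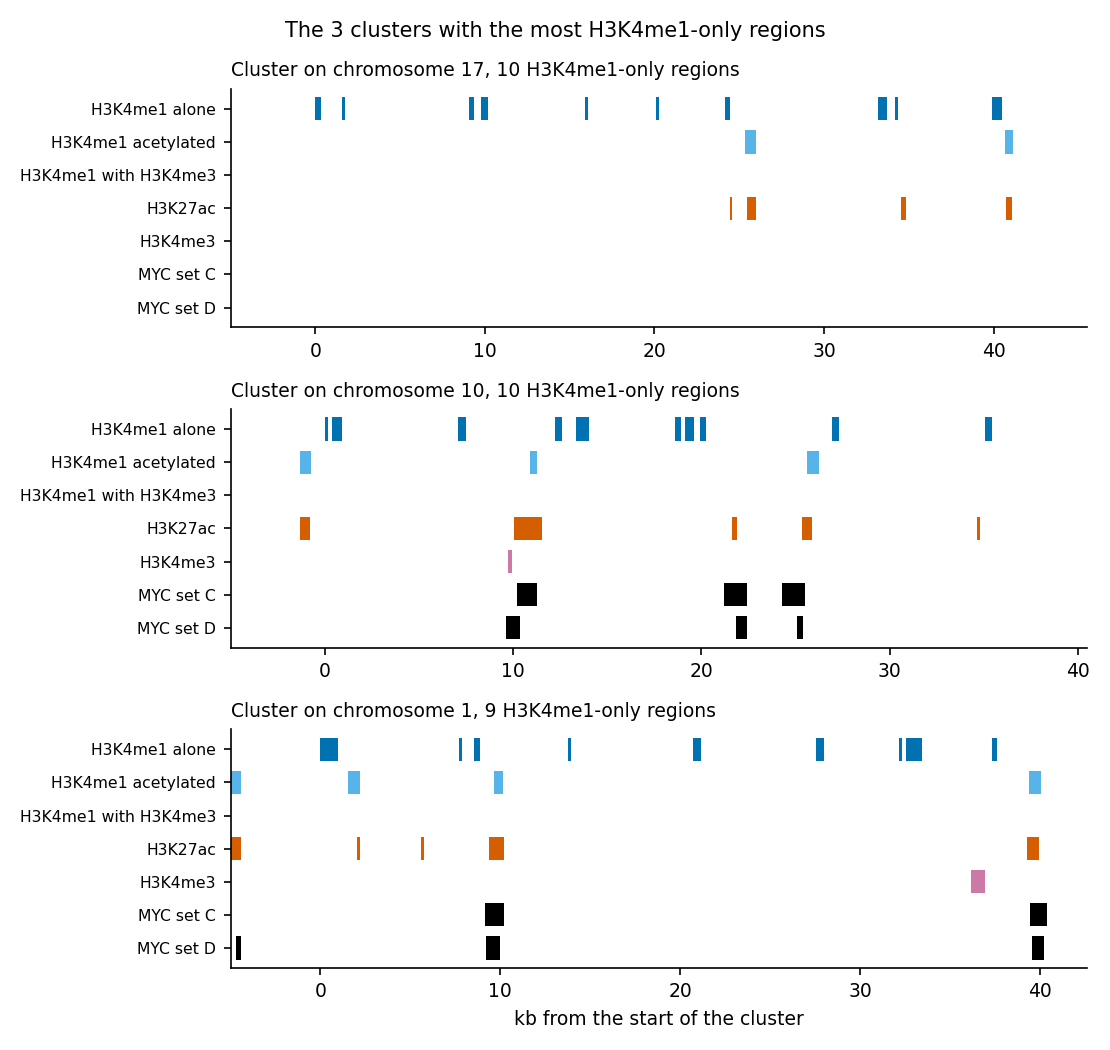
Regions of each list in the 3 groups with the most H3K4me1-only regions, drawn to scale in kb from the first member, with 5 kb on each side; each block is 1 listed region. The groups hold 10, 10 and 9 H3K4me1-only regions, and the MYC blocks coincide with none of them.

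The 10 widest members measured 1537 to 1997 bp. Of them 2 held MYC of set D, none MYC of set C and none MYCN, where the class shares were 4.30%, 2.18% and 0.0582%. Among all members of 493 bp or more, 9.53% held MYC of either list. With only 10 members, these counts were not tested against the class. The widest lay on chromosome 6 from 33823894 to 33825890, 2648 bp from H3K27ac and 66792 bp from H3K4me3. The next, of 1818 bp, lay on chromosome 9 at 139735471 to 139737288, 48623 bp from H3K27ac. It was followed by a member of 1681 bp on chromosome 1 at 1071962 to 1073642, 4531 bp from H3K27ac. Of the 2 with MYC, that of 1628 bp on chromosome 16 at 90074649 to 90076276 had 480 bp inside the peak. That of 1623 bp on chromosome 17 at 17694993 to 17696615 had 187 bp inside it. Over all the 10 widest, H3K27ac lay between 1930 and 75131 bp away, and 3 had it within 5 kb, against 43.8% of the class.

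The 5 members farthest from H3K27ac were also over 1 Mb from H3K4me3. The farthest was on chromosome X from 143930488 to 143930743 (256 bp), 2608775 bp from H3K27ac and 3062521 bp from H3K4me3. A pair on chromosome 19 lay 932 bp apart. It was made of a 168 bp member at 31830317 to 31830484, 1241666 bp from H3K27ac, and a 456 bp member at 31831417 to 31831872, 1240278 bp from it. The second of the pair shared 311 bp with a MYC region of set C, and the other 4 of the 5 farthest members held no MYC. The other 2 were both on chromosome 2, from 124452828 to 124453147 and from 35073789 to 35074037, at 1003081 and 988357 bp from H3K27ac.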

How the data were processed

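Region lists of 6 CUT&RUN libraries of RPMI-8402 were analysed. The deposited values are region starts and ends in bases. The build was hg19 and the callers MACS2 and SEACR, per the submitters' processing notes, with no versions. H3K4me3 and MYC of set D were called with MACS2 and MYC of set C with SEACR in stringent mode, per the file headers. The MYCN list is cutruntools output, per its header. No header describes the lists of H3K27ac and H3K4me1, and the aligner is not given in the sources used here. Callers differ in where they end a region, which moves overlaps and distances between lists.

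Chromosomes 1 to 22 and X were used. Overlap meant at least 1 shared bp, and distance the bases between 2 regions. Shares have exact Clopper-Pearson and differences Newcombe 95% intervals. Overlaps and distances were tested on simulated data and equalled bedtools 2.31.1 for all 5 other lists. The software was matplotlib 3.10.9, scipy 1.17.1, numpy 2.4.6 and Python 3.11.15. Regions named were those with MYCN, the 10 widest, the 10 widest with both MYC lists, the 5 groups with the most members and the 5 farthest from H3K27ac, plus the widest MYC region over members, named after its value was seen. Members, lists and rules were chosen with earlier results of these data known. The planned gene and sequence comparisons were not run, since a genome and annotation of hg19 were not used here.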

Additional observations from a re-analysis of the deposited data

How the results depend on the processing

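The larger MYC share of acetylated regions kept its direction, with an interval above 0, under every alternative run. Leaving out either MYC list gave 5.83 to 12.6 points. No alternative was confined to the border of the class, where the 2 sides held MYC alike (12.4% and 12.3%). The MYC share of members was 2.18 to 4.30% with either MYC list left out, 0.683% with both required, 4.96% by region centres, 7.24% among the wider H3K4me1 regions and, as an alternative chosen after seeing the data, 4.55% from MYC regions without either mark. The share of H3K4me1 regions in the class was 57.1% by centres, 35.5% with marks widened by 1 kb, 36.7% among wider regions and 46.8% after joining H3K4me1 regions within 500 bp. In that order of settings the median distance to H3K27ac was 4217, 10662, 7380 and 7516 bp, and the share with another member within 10 kb was 42.6%, 31.4%, 19.3% and 28.8%. The latter was 18.8% within 3 kb, 22.6% within 5 kb and 61.6% within 25 kb. With widened marks the median distance to H3K4me3 was 49536 bp. These settings change which regions belong to the class or count as neighbours by construction. No paired analysis was possible because each mark has 1 library. Depth is unknown, so weak acetylation below the caller's threshold cannot be told apart from none.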
